A study of Mus musculus with 721 samples.

Results

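The cells of the inner cell mass (ICM) at embryonic day 3.5 (E3.5) were set against the primitive endoderm (PrE) of mouse blastocysts at E4.5. These are 178 of the 721 cells of the series, namely all 99 cells of E3.5 and 79 of the 105 cells of E4.5. An E4.5 cell was taken as PrE where its mean log2(CPM + 1) over Dab2, Lama1, Lamb1, Lamc1, Cubn and Amn was above its mean over Sox2, Fgf4, Dnmt3b, Dnmt3l and Dppa4, CPM being counts scaled to a total of 1000000 in each cell. The CPM of a sum, used below, are counts scaled to 1000000 of its total times its TMM factor, a scaling of edgeR that allows for differences in composition. The rule also lists Slc7a3, which has no row in the table analysed here, so that 11 genes were used. The difference of the 2 means lay between 0.797 and 8.05 in the chosen cells (median 6.04) and between −6.47 and −2.10 in the 26 cells that were not chosen. The cells just inside the limit of 0 stood at 0.797, 1.36, 1.39 and 1.97, and those just outside at −2.10 and −2.91. In all, 6 chosen cells stood at 2.27 or less, and the next stood at 4.42. The means of these 6 were 8.41 to 9.87 over the first gene set and 6.93 to 8.44 over the second. The paper reports a small group of intermediate E4.5 cells with markers of both lineages and left it out of later steps. Whether these 6 belong to that group was not tested, and they were kept here. The scores chose the members, so the 11 genes were left out of every test below and their levels are a description.

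All embryos were untreated and wild type, of the strain C57Bl/6Babr. Blastocysts were flushed at E3.5 and dissected from the decidua at E4.5, and at both stages the trophectoderm was lysed by immunosurgery before the ICM was taken apart and its cells were picked by hand, so that picked cells stand for each embryo and not its whole ICM. Counts were summed over the cells of an embryo, which gave 10 sums at E3.5 and 5 of PrE, and the embryo is the replicate. At E3.5, 5 embryos gave 3 or 4 cells each on plate P8, 4 embryos gave 11 to 28 cells on plate P9, and 9 cells whose titles give no embryo number were kept as 1 sum, which may hold several embryos. The PrE cells came from 2 embryos on plate P1 with 12 cells each and 3 embryos on plate P2 with 9, 27 and 19 cells. No plate held cells of both stages, so stage and plate cannot be told apart. The totals per sum were 2418676 to 14908544 counts at E3.5 and 4589551 to 31919578 counts in PrE, and 9 of the E3.5 and 31 of the PrE cells were picked as doublets.

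The PrE is the epithelium that comes to line the blastocyst cavity. It arises beside the epiblast within the ICM, where cells first carry Gata6 and Nanog together and FGF signalling through ERK favours Gata6, and it then turns on Sox17, Gata4 and Sox7. Its descendants, the parietal and the visceral endoderm, are known for laying down thick basement membrane and for taking up maternal proteins through the endocytic receptors megalin and cubilin.

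The label was first checked with Gata6, Sox17 and Pdgfra, none of which the rule used. Gata6, the zinc finger factor that starts the PrE programme, stood at 145, 205, 244, 193 and 147 CPM in the 5 PrE sums, and at 100.4 CPM (lowest), 235 CPM (median) and 422 CPM (highest) in the E3.5 sums. Its ranges overlapped, and its log2 fold change from E3.5 to PrE was −0.35 ± 0.32 (SE, adjusted p = 0.53 by the quasi-likelihood test of edgeR, which gave all adjusted p-values of levels below). Sox17, an HMG box factor of the endoderm (GRCm38 chr1:4490931-4497354), stood at 112, 173, 184, 117 and 56.3 CPM in PrE and between 0 and 124 CPM (median 27.3 CPM) at E3.5. The Sox17 difference was 1.63 ± 0.92 on the log2 scale (adjusted p = 0.27). Pdgfra, the receptor for PDGF-A (chr5:75152292-75198215), stood at 279, 257, 190, 177 and 187 CPM in PrE, above each of the E3.5 sums, which ran from 0.711 CPM over a median of 89.2 CPM to 151 CPM. Its log2 difference of 1.45 ± 0.55 missed the threshold (adjusted p = 0.083). In the 26 E4.5 cells that were not chosen, again summed by embryo, the mean was 2.45 CPM for Gata6, 3.46 CPM for Sox17 and 0 for Pdgfra. Here and below, CPM of the cells not chosen come from a second TMM scaling with their sums included. They are thus not on exactly the scale of the other values. The PrE mean of Car4, for example, was 178 CPM on the first scale and 167 CPM on the second. Gata6, Sox17 and Pdgfra were thus present in each PrE sum, and by their sums none of them passed the test of a rise from the E3.5 ICM.

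**Figure D1:**
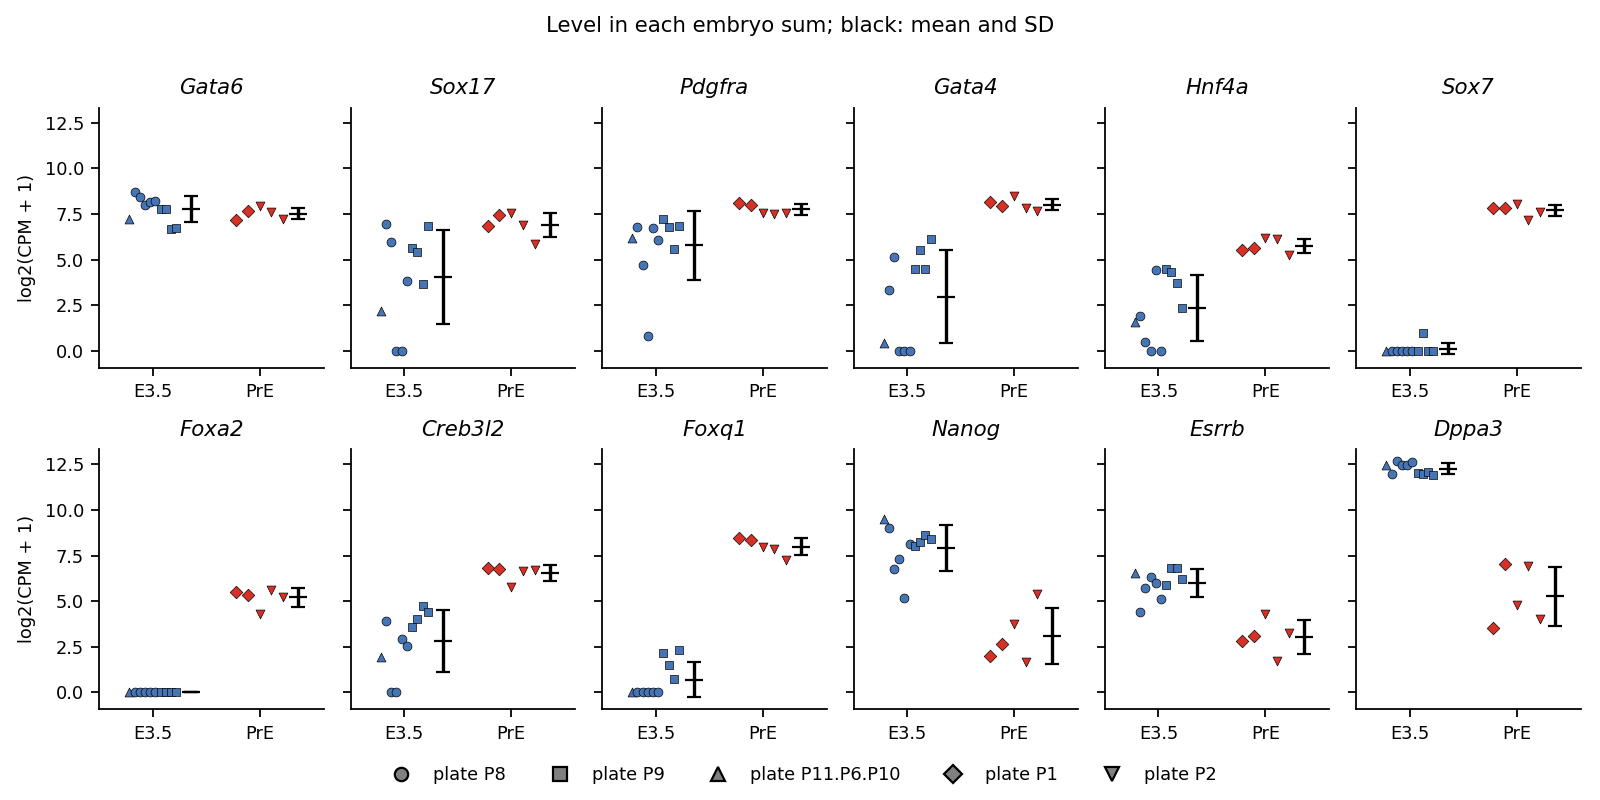
Level of 12 genes, as log2(CPM + 1), in each of the 10 E3.5 sums and the 5 PrE sums, with a marker for each plate and the mean and SD of each group. Gata6 overlaps between the groups, whereas Gata4, Sox7, Foxa2, Creb3l2 and Foxq1 are higher in every PrE sum, and Esrrb and Dppa3 are lower in every PrE sum.

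Within E3.5, the levels of Gata6 lay apart by plate. Its level was 250.5 to 422 CPM in the 5 P8 sums and 100.4 to 220 CPM in the 4 P9 sums, which do not overlap, and the log2 difference of P9 from P8 was −1.02 (unadjusted p = 0.00739, adjusted p = 0.232 by edgeR). Over all genes, 12 of 8986 (0.134%) passed between these plates (874 at an unadjusted p under 0.05), and Psap was the only gene among them that is on any list used here. Between P2 and P1 within PrE, 0 of 11144 genes passed in edgeR's test (609 at an unadjusted p under 0.05).

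Cells of other origin were looked for with fixed markers. Of 23 trophectoderm markers, 12 passed the filter on low counts, and 2 of these were higher and 4 lower in PrE by the test described below (1 was higher without E4.5 embryo 5 and with all E4.5 cells, and 3 were without E3.5 embryo 4). The summed level of the whole list was 564 to 3949 CPM at E3.5 and 2669 to 6155 CPM in PrE, where Lrp2 (mean 2445 CPM) and Fabp3 (949 CPM) carried most of it. Cdx2, which defines the trophectoderm, had no count in any PrE sum. In the E3.5 sums, it had a count in 1 cell of P8 embryo 3 (84.8 CPM in the cell) and 1 of P9 embryo 6 (21.0 CPM). It also had a count in 1 of the cells with no embryo number (120 CPM) and 1 of P8 embryo 4. At E3.5, 1 of the 4 cells of P8 embryo 4 had counts of Cdx2 (459 CPM in the cell), Krt18 (1885 CPM), Elf5 (111 CPM) and Dppa1 (1238 CPM) together, and no other cell of the comparison did. Without that embryo, 1590 genes passed the comparison of the stages in place of 1548. Of 19 markers of maternal and blood cells, 14 had no count at E3.5 and 10 none in PrE, 1 of the 2 that could be tested was lower in PrE, and their sum was 82.7 to 307 CPM at E3.5 and 11.5 to 34.9 CPM in PrE.

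Of 10576 genes tested, 1548 (14.6%) passed, that is with an edgeR adjusted p no higher than 0.05 and more than a 2-fold change in either direction. Of these, 801 (7.57% of the genes tested) were higher in PrE and 747 (7.06%) were lower. Every PrE sum was above every E3.5 sum for 791 genes (7.48%) and below for 356 (3.37%), and the median log2 fold change of all genes tested was 0.11. Because the PrE cells were chosen by expression, the test was repeated with all E4.5 cells of the same 5 embryos, which gave 655 genes higher and 784 lower at E4.5. With only the PrE cells whose difference of the 2 means was over 2, 1620 genes passed (821 higher and 799 lower). With the E3.5 embryos of plate P8 or P9 alone, 1427 and 2398 genes passed, and with the PrE of plate P1 or P2 alone, 628 and 983. Below, "rose" and "fell" stand for genes that passed from E3.5 to PrE, and each list is read against these shares. A fold change against a group with no count is given as a lower bound, with 3 counts over that group as the floor. Such a bound allows for counting error only, and not for the spread between cells or embryos.

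Of the PrE transcription factors, 24 of 30 could be tested, and 9 rose and 2 fell (7 and 3 with all E4.5 cells). The median log2 fold change of the 24 was 1.52. Gata4, the GATA factor that acts downstream of Gata6, stood at 285, 246, 356, 225 and 203 CPM in the PrE sums and between 0 and 69.3 CPM at E3.5, a log2 rise of 3.70 ± 0.97 (adjusted p = 0.012), which did not pass with the PrE of plate P1 or P2 alone (adjusted p = 0.15 and 0.056). Sox7, a SOX factor that follows Sox17, had 8 counts in all of the E3.5 sums (at most 0.968 CPM) and stood at 225, 224, 262, 144 and 194 CPM in PrE (adjusted p = 3.6e-08). Foxa2, a forkhead factor of the endoderm, had no count in any E3.5 sum and stood at 44.6, 39.9, 18.8, 47.3 and 36.6 CPM in PrE, which is at least 744-fold higher. These 3 genes were thus close to silent or low at E3.5 and on in every E4.5 embryo.

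Foxq1, another forkhead factor, was at 3.96 CPM or less at E3.5 and at 352, 331, 245, 232 and 155 CPM in PrE (log2 fold change 7.75 ± 0.86, adjusted p = 2.8e-06). Lhx1, a LIM homeodomain factor known from the anterior endoderm, had no count at E3.5 and 2.33 to 8.74 CPM in PrE, at least 124-fold higher. Creb3l2, a membrane-bound factor that acts on secretory genes, rose from a mean of 10.02 to 95.3 CPM (3.24 ± 0.80, adjusted p = 0.0075), a call that was lost with 3 cells per sum and with the PrE of plate P1 or P2 alone. Hhex rose from 10.05 to 68.2 CPM (2.76 ± 0.70, adjusted p = 0.0099). Its call was lost with all E4.5 cells (2.19), with 3 cells per sum, without the doublets, under the block on embryo numbers and with E3.5 plate P8, E4.5 plate P1 or P2 alone. Hnf4a, the nuclear receptor of the visceral endoderm, stood at 37.7 to 72.1 CPM in PrE, above every E3.5 sum (0 to 21.5 CPM), but its log2 difference of 2.70 ± 0.95 had an adjusted p of 0.059, and it passed as a rise under 6 alternatives, DESeq2 and limma among them.

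The 2 factors of this list that fell went against the rest. Gsc, a homeodomain factor better known from the organizer, stood at 12.9 to 149.97 CPM (median 42.7 CPM) at E3.5 and at 0 to 4.48 CPM in PrE (log2 fold change −5.60 ± 1.31, adjusted p = 0.0053). Nr5a2, an orphan nuclear receptor that acts on Pou5f1, stood at 8.31 to 120 CPM at E3.5 and at 0 to 6.10 CPM in PrE (−5.47 ± 1.21, adjusted p = 0.0032), a call that the block on embryo numbers removed (adjusted p = 0.052). Neither gene overlapped between the groups. The mean in the E4.5 cells not chosen was 0.816 CPM for Gsc and 14.2 CPM for Nr5a2.

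Shares of cells gave a second view of the same factors. Each cell was thinned to 180000 counts, the share of cells with at least 1 count was taken in each sum, and the 15 shares were compared by an exact two-sided permutation test over the 3003 splits, with adjustment over 53 genes. The smallest p this allows is 0.000333. In all, 21 of these 53 genes had a higher share in PrE and 2 a lower one. They are members of the factor list and of a list of receptors and ligands given below. Shares of other genes were not tested, so these counts cannot be read against a share over all genes. Before thinning, a cell had a median of 6258 genes with a count at E3.5 and 7257 in PrE. The percentages of cells given here and below are means of these shares over the sums. A sum of 3 cells thus counts as much as a sum of 28. A doublet counts as 1 cell in a share, and 31 of the 79 PrE and 9 of the 99 E3.5 cells were doublets. Without the doublets, 20 genes had a higher share in PrE and 2 a lower one. Gata6 was detected in 92.2% ± 9.51 of E3.5 cells (SD, n = 10) and 95.1% ± 4.96 of PrE cells (n = 5, exact permutation adjusted p = 0.677). Sox17 went from 30.2% ± 23.5 to 87.0% ± 10.9 (exact permutation adjusted p = 0.00110) and Gata4 from 18.9% ± 15.2 to 98.3% ± 3.73 (the same p). The mean share of Sox7 was 0.588% at E3.5 (1 of 99 cells) and 97.0% in PrE (75 of 79 cells). That of Foxq1 was 3.48% (7 of 99 cells) and 97.2% (76 of 79 cells).

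Foxa2 was found in 70.7% of PrE cells and in 0 of 99 E3.5 cells. That count of 0 allows up to 3.03% of cells with a count of Foxa2 at this depth, for counting error only, and is no limit on cells that express it. Hnf4a went from 18.7% to 78.1%. Pdgfra, which missed the test of its summed level, was found in 65.0% ± 16.7 of E3.5 cells and in each PrE cell (exact permutation adjusted p = 0.00557), but without thinning that p was 0.0706 and with a limit of at least 10 CPM in the cell it was 0.0654. Eomes, a T-box factor, went from 50.8% to 79.7% of cells (exact permutation adjusted p = 0.00722), while its summed level did not pass (mean 33.9 and 59.9 CPM, adjusted p = 0.33 by edgeR). Gsc and Nr5a2 were the genes with a lower share, which went from 71.5% to 5.0% and from 78.1% to 6.24%. For Gata6, then, neither the share of cells nor the level passed, and for Sox17 the share passed and the level did not.

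**Figure D2:**
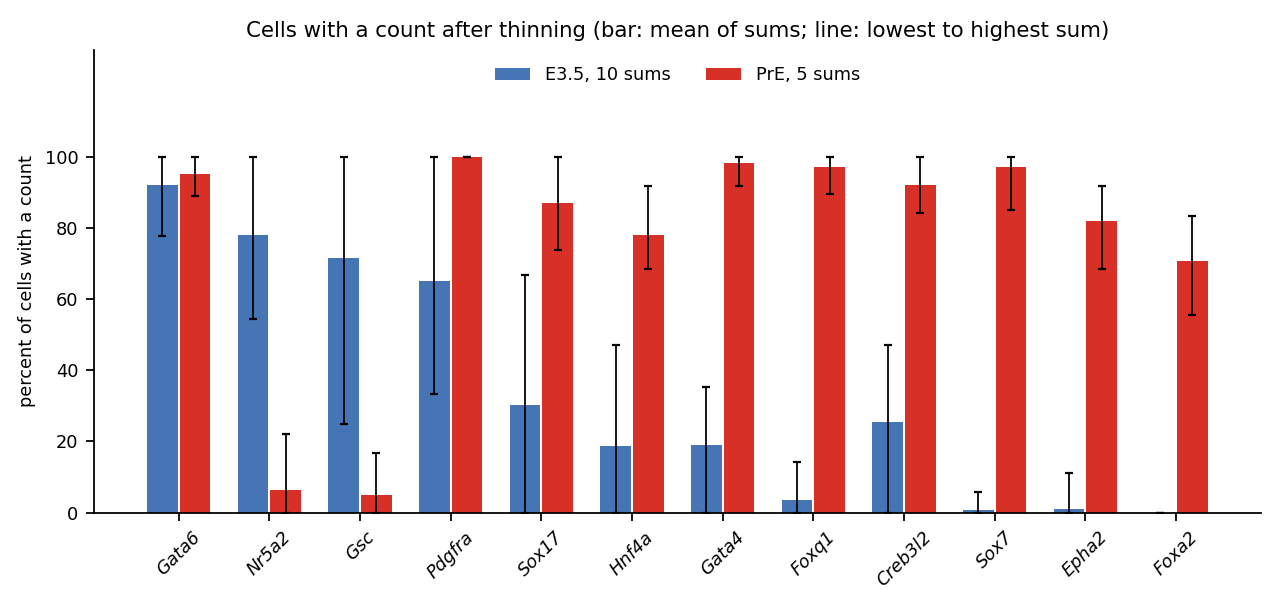
Percent of cells with at least 1 count after thinning to 180000 counts per cell, as the mean over the 10 E3.5 sums and the 5 PrE sums, with a line from the lowest to the highest sum, for 12 genes. Gata6 is above 77% in every sum of both groups, whereas Sox7, Foxa2 and Foxq1 have means of 3.48% or less at E3.5.

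Counting pairs of genes in the same thinned cells showed how the ICM and the PrE differ in make-up. At E3.5, 81 of 99 cells had counts of both Gata6 and Nanog, 7 had Gata6 without Nanog, 11 had Nanog without Gata6 and 0 had neither. In PrE, 8 of 79 cells had both and 68 had Gata6 without Nanog, and among the 26 E4.5 cells not chosen, 2 had both and 20 had Nanog without Gata6. Each of the 30 E3.5 cells with Sox17 and each of the 24 with Gata4 also had Gata6, and 24 of the 30 and 20 of the 24 also had Nanog. In PrE, 76 of 79 cells had both Gata6 and Gata4. A doublet counts here as 1 cell, and cells of an embryo share their source, so these counts are a description of the cells and carry no test.

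The basement membrane list described the other side of PrE identity. Of 33 genes for matrix proteins and the enzymes that mature them, 26 were tested, and 13 rose and 3 fell (12 and 2 with all E4.5 cells). The summed level of the list was 1944 to 3493 CPM at E3.5 and 14578 to 19623 CPM in PrE. That sum includes 3 genes of the rule and is a description. The median log2 fold change of the 26 tested genes was 1.97. Without E4.5 embryo 1, 3, 4 or 5 in turn, 1 gene fell in place of 3. The laminin chains that the rule used were at a mean of 1036 (Lama1), 1791 (Lamb1) and 1439 (Lamc1) CPM in PrE and at 13.9, 126 and 101.2 CPM at E3.5, which is given without a test.

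Col4a1 and Col4a2 encode the chains of the type IV collagen network and start 21 bases apart on opposite strands of chromosome 8 (RefSeq, GRCm38.p6). Col4a1 stood at 1.42 to 81.0 CPM at E3.5 and at 999, 912, 1160, 577 and 963 CPM in PrE (log2 fold change 4.74 ± 0.58, adjusted p = 9.4e-06). Col4a2 stood at 1.35 to 133 CPM and at 712, 637, 831, 387 and 697 CPM (4.18 ± 0.70, adjusted p = 0.00027). The embryos kept the same order for both genes, with embryo 3 highest and embryo 4 lowest. Hspg2, which encodes the heparan sulfate proteoglycan perlecan, went from a mean of 2.12 to 725 CPM (8.17 ± 1.03, adjusted p = 1.2e-05).

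Sparc, a matrix protein that binds collagen IV, rose from 224 ± 197 CPM (SD, n = 10) to 3230 ± 511 CPM (n = 5, adjusted p = 0.00032 by edgeR). The collagen chaperone Serpinh1 rose from 295 to 2898 CPM and P4hb, the beta subunit of prolyl 4-hydroxylase and a protein disulfide isomerase, from 570 to 2366 CPM (log2 fold changes 3.30 ± 0.49 and 2.05 ± 0.26). Of the nidogens, Nid2 rose from 3.00 to 68.1 CPM (4.52 ± 1.06, adjusted p = 0.0054, not passed with E3.5 plate P8 or E4.5 plate P1 alone or under the block), while Nid1 stood at 75.7 and 83.6 CPM (0.14 ± 0.51, adjusted p = 0.90). Lamb2, a laminin beta chain, had no count at E3.5 and between 3.02 and 37.7 CPM in PrE, at least 406-fold higher. Lama5, an alpha chain that basement membranes of the early embryo also use, fell from 189 to 60.8 CPM with overlapping ranges (−1.64 ± 0.45, adjusted p = 0.017). The call of Lama5 was lost with E3.5 plate P8 (adjusted p = 0.11) or E4.5 plate P1 alone (0.39), under the block (0.14) and in the test against a log2 limit of 1 (0.18). Fn1, encoding fibronectin, stood at 105 and 45.4 CPM (adjusted p = 0.25), and passed as lower under 3 alternatives, with E3.5 plate P9 alone, with at least 5 cells per sum and without E3.5 embryo 4. In the E4.5 cells not chosen, Nid2 was at a mean of 146 CPM and Fn1 at 247 CPM, both above their means in PrE.

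**Figure D3:**
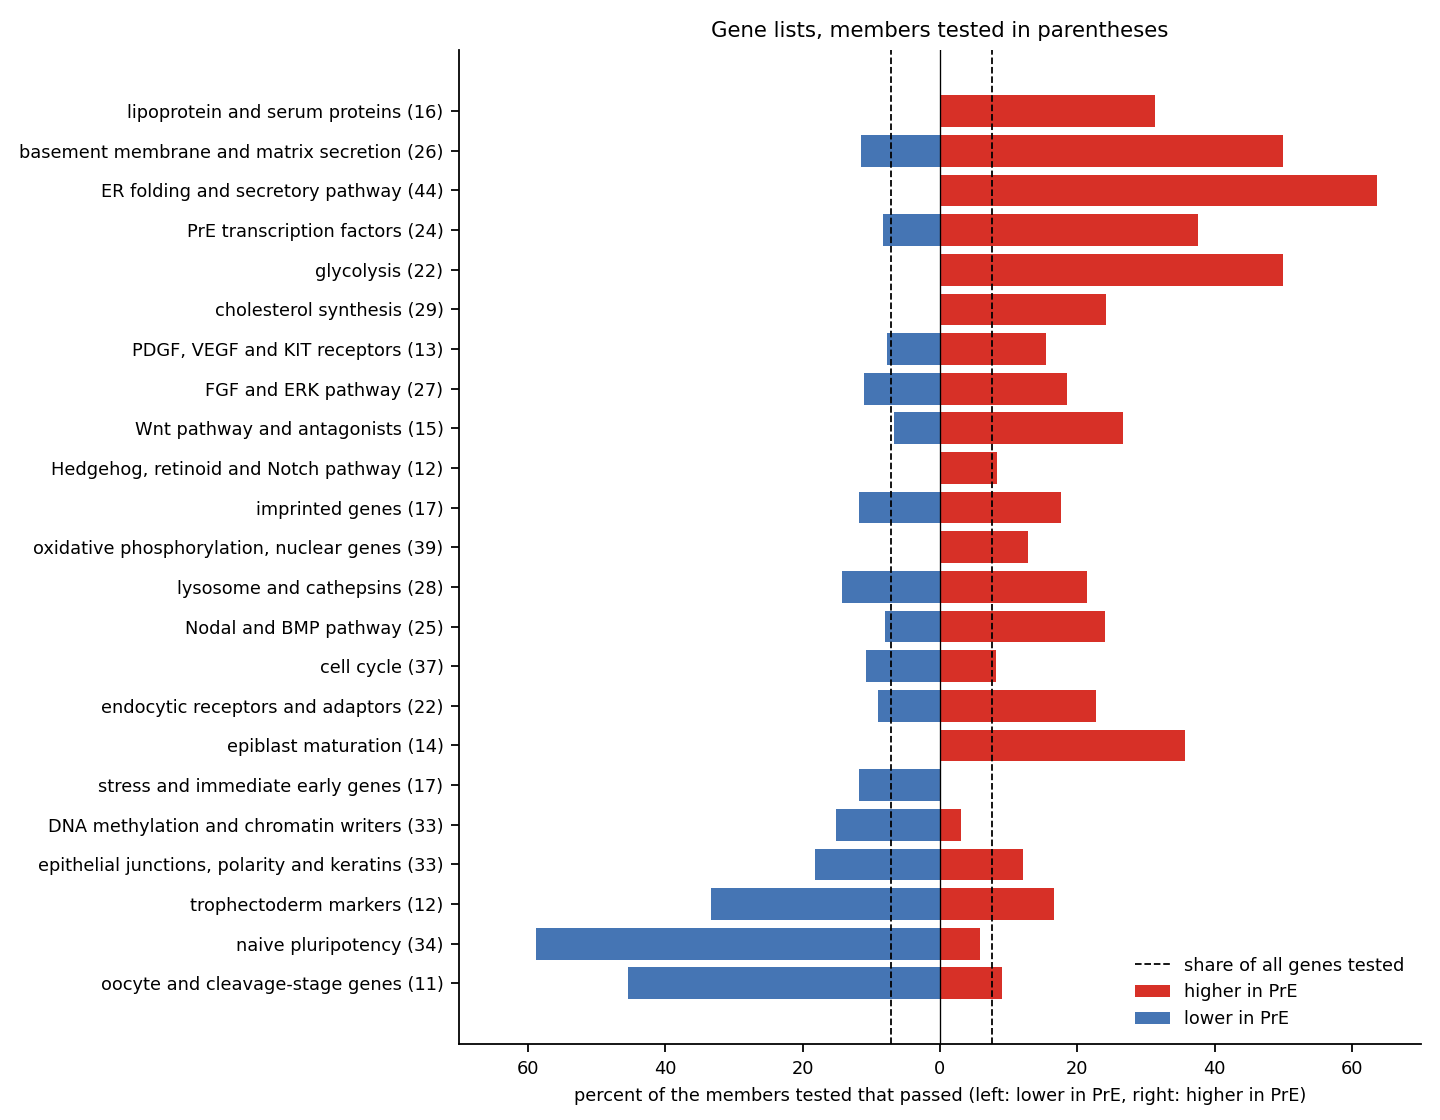
Percent of the tested members of each gene list that rose (to the right) and fell (to the left) from E3.5 to PrE, with dashed lines at the shares over all genes tested (7.57% and 7.06%). Of the lists drawn, the ER list (28 of 44), glycolysis (11 of 22) and the matrix list (13 of 26) stand furthest to the right, and naive pluripotency (20 of 34) furthest to the left.

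The genes of protein folding and secretion in the endoplasmic reticulum (ER) rose in the greatest share of any list. All but 1 of the 45 list members were tested, and 28 of 44 rose and 0 fell (20 and 0 with all E4.5 cells), with 23 to 28 rising when an embryo was left out. The list summed to 5453 to 10902 CPM at E3.5 and 20394 to 29209 CPM in PrE, and its median log2 fold change was 1.69. Hspa5, the HSP70 chaperone of the ER, stood at 151 to 1147 CPM (median 570 CPM) at E3.5 and at 3546, 1884, 2732, 2888 and 3210 CPM in PrE (2.22 ± 0.30, adjusted p = 2.4e-05). Hsp90b1, the HSP90 of the ER, rose from 810 to 2992 CPM (1.89 ± 0.31, adjusted p = 0.00025), and the lectin chaperone Calr from 185 to 1027 CPM (2.47 ± 0.25, adjusted p = 7.7e-07). Xbp1, the factor that the sensor IRE1 activates by splicing, rose from 108 to 510 CPM (2.24 ± 0.32), and Manf, a small ER protein released under stress, from 82.3 to 889 CPM (3.43 ± 0.36). Rcn3, a calcium-binding ER protein linked to collagen secretion, rose from 3.89 to 459 CPM (6.79 ± 0.69, adjusted p = 1.1e-06). In the E4.5 cells not chosen, Hspa5 was at a mean of 505 CPM, Hsp90b1 at 770 CPM and Rcn3 at 48.9 CPM.

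Many ER chaperone genes carry the ER stress response element, which ATF6 with NF-Y can bind. The search took CCAAT followed, after any 9 bases, by CCACG, on either strand within 250 bases before the start of each gene in the RefSeq promoter table (GRCm38.p6), and 37 of 32851 promoters (0.113%) held a match. Of the 44 tested list members, 34 had a promoter in the table and 7 of them (20.6%) held a match. They were 6 of the 22 with a promoter that rose and 1 of the 12 that did not pass. Their sequences are shown because they are the feature that these members share and the rule did not use. Each is written 5′ to 3′ along the strand of the gene with the matched letters in capitals, with 30 bases on either side of the match, and for Hspa5 with the whole 250 bases.
Hspa5, chr2:34771840-34772089, plus strand: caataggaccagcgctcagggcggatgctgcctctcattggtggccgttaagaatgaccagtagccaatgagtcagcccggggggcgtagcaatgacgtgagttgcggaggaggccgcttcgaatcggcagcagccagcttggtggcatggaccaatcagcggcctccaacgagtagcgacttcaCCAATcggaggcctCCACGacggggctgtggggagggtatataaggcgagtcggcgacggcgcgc
Hsp90b1, chr10:86705503-86705686, minus strand: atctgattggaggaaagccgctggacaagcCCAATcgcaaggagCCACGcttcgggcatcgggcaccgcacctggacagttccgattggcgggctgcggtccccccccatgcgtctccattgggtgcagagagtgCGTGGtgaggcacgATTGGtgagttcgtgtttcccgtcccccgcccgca
Calr, chr8:84847045-84847123, minus strand: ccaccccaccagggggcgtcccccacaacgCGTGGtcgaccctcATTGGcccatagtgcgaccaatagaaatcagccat
Creld2, chr15:88819490-88819568, plus strand: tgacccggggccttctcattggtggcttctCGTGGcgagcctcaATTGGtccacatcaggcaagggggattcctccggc
Pdia6, chr12:17266461-17266539, plus strand: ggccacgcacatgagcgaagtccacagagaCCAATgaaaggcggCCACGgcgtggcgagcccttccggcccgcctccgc
Dnajc3, chr14:118937797-118937875, plus strand: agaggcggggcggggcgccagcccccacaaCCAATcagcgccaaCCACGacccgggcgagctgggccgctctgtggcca
Canx, chr11:50325770-50325848, minus strand: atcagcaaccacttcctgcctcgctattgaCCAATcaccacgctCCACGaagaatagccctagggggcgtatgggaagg

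The element stood on the gene's own strand in Hspa5, Pdia6, Dnajc3 and Canx, on the opposite strand in Calr and Creld2, and on each strand in turn in Hsp90b1, the only one of them with 2 matches. In Hspa5 the match ended 46 bases before the start of the gene, and in Calr 143 bases before it. Dnajc3, a co-chaperone of Hspa5, rose from 38.0 to 457 CPM (log2 fold change 3.59 ± 1.01, adjusted p = 0.018). Its call was lost with E3.5 plate P8 (adjusted p = 0.16), E4.5 plate P1 (0.18) or E4.5 plate P2 alone (0.077) and in the test against the log2 limit (0.055). Pdia6, a disulfide isomerase, rose from 92.7 to 923 CPM (3.31 ± 0.55). Creld2, which also acts in disulfide exchange, rose from 131 to 1048 CPM (3.00 ± 0.33). Canx, the membrane-bound partner of Calr, stood at 761 and 1264 CPM with overlapping ranges (0.73 ± 0.31, adjusted p = 0.13). Outside the list, 8 tested genes held a match, 2 of which rose and 0 fell. They were Derl3, a part of the ER-associated degradation machinery, which went from 0.172 to 52.7 CPM (7.78 ± 1.14), and Syvn1, its ubiquitin ligase, which went from 57.5 to 266 CPM (2.21 ± 0.49), both named after their values were seen. A match is a description of the letters and not of binding.

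**Figure D4:**
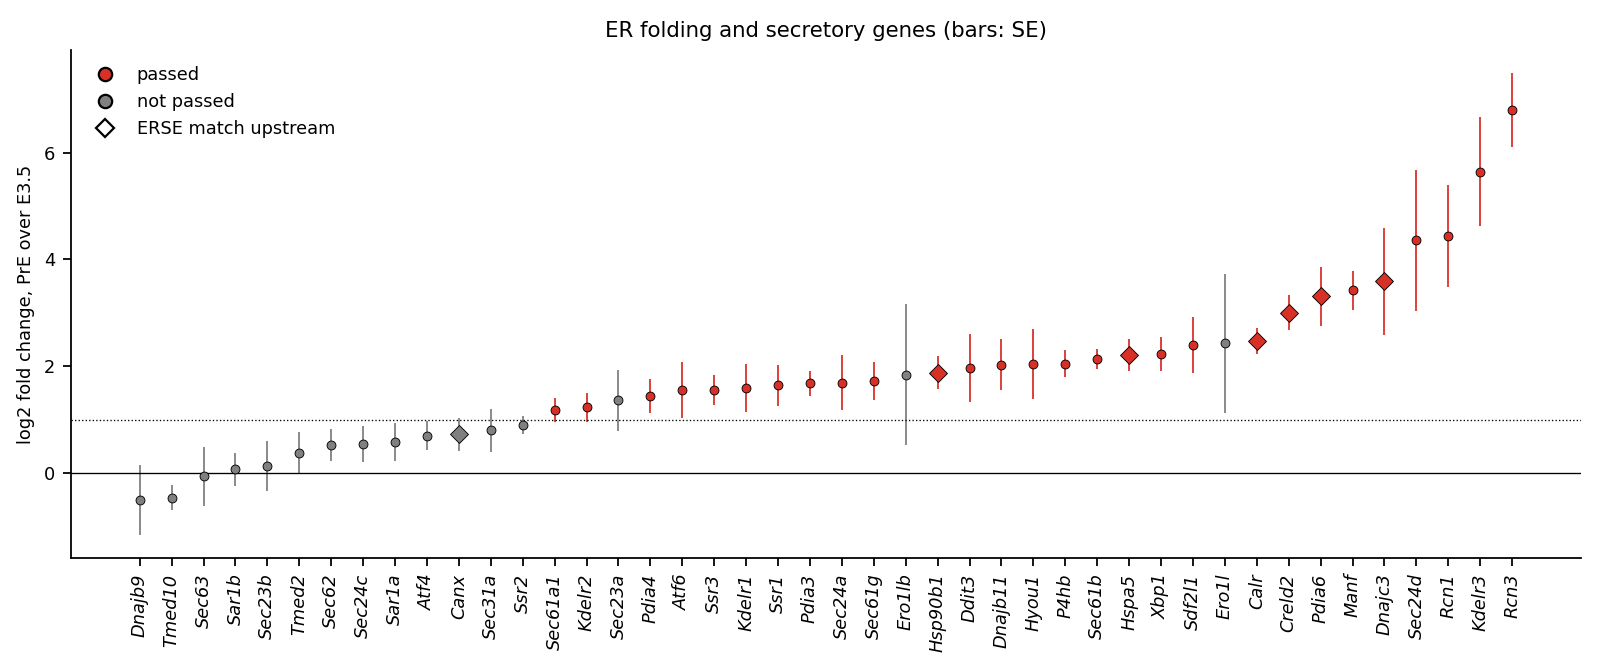
Log2 fold change from E3.5 to PrE of the 44 tested genes of the ER list, with its SE, where diamonds mark the 7 genes whose 250 upstream bases hold the element. Of the 7, 6 passed with fold changes from 1.89 (Hsp90b1) to 3.59 (Dnajc3), and Canx at 0.73 did not pass.

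Cubn, Amn and Dab2, which make up the cubilin complex and its adaptor, were part of the rule and stood at a mean of 3000 (Cubn), 1549 (Amn) and 1954 (Dab2) CPM in PrE and 17.7, 0.649 and 34.4 CPM at E3.5, again without a test. Lrp2, encoding the receptor megalin, was not part of the rule. It stood at 0 to 31.3 CPM at E3.5 and at 2549, 1968, 2200, 1542 and 3964 CPM in PrE (log2 fold change 8.46 ± 1.01, adjusted p = 6.6e-06). Of the 22 genes of this list that were tested, 5 rose and 2 fell, and the median of 0.24 turned to −0.12 with all E4.5 cells, where 4 rose and 1 fell. Cltc, the clathrin heavy chain, rose from 169 to 734 CPM (2.12 ± 0.29), and Tfrc, the transferrin receptor, fell from 77.3 to 12.8 CPM (−2.59 ± 0.61, adjusted p = 0.0052), a call that was lost with all E4.5 cells (−1.45), with the PrE of plate P1 or P2 alone and under the block. Leaving out E4.5 embryo 1, 2 or 4 left 1 gene of the list that fell.

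Lysosomal genes moved both ways, with 6 of 28 rising and 4 falling (5 and 5 with all E4.5 cells), and the median of 0.36 was −0.05 with all E4.5 cells. Among the proteases, Ctsz rose from 88.6 to 1137 CPM (3.68 ± 0.31, adjusted p = 8.7e-08) and Ctsl from 474 to 2289 CPM (2.27 ± 0.34), whereas Ctsb stood at 332 and 334 CPM. The fallers included hydrolases and their helpers. Glb1, the lysosomal beta-galactosidase, stood at 386 to 746 CPM at E3.5 and at 153, 121, 143, 132 and 133 CPM in PrE (−1.88 ± 0.20, adjusted p = 2.1e-06). Psap, the precursor of the saposins, stood at 97.0 to 132 CPM in PrE, below all E3.5 sums (−3.46 ± 0.49), but it was 357 to 915 CPM in the P8 sums and 1844 to 2102 CPM in the P9 sums.

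Of 30 genes for lipoproteins and serum proteins, 16 had enough counts for a test, and 5 rose and 0 fell (8 and 0 with all E4.5 cells). Ttr, the thyroid hormone carrier transthyretin, had no count at E3.5 and stood at 85.0, 36.5, 104, 69.3 and 65.5 CPM in PrE, at least 1432-fold higher. Apoe rose from 216 to 2256 CPM (3.38 ± 0.48, adjusted p = 5.2e-05), and the E4.5 cells not chosen had a mean of 2421 CPM. Apom, a carrier of sphingosine phosphate, stood at 5.89 CPM or less at E3.5 and at 65.6 to 357 CPM in PrE (6.503 ± 0.94). Apoa1 stood at a mean of 24.4 CPM at E3.5 and 1.42 CPM in PrE (adjusted p = 0.052), and passed as lower under 9 alternatives, DESeq2 and limma among them. Afp and Trf, serum proteins that mark the later visceral endoderm, had no count at E3.5 and a mean of only 0.241 and 1.76 CPM in PrE.

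Among the receptors and ligands of FGF signalling, 5 of 27 rose and 3 fell (4 and 3 with all E4.5 cells), with 3 that rose when E4.5 embryo 5 was left out. Fgfr1 and Fgfr3, receptors for FGF, moved in opposite directions. Fgfr1 stood at 36.8 to 252 CPM (median 77.8 CPM) at E3.5 and at 17.7, 6.05, 20.3, 3.88 and 10.2 CPM in PrE (−3.07 ± 0.55, adjusted p = 0.00052), while Fgfr3 stood at 1.52 CPM or less at E3.5 and at 165, 113, 148, 75.5 and 124 CPM in PrE (9.12 ± 1.01, adjusted p = 2.8e-06). Fgfr2, the receptor most often tied to PrE, stood at 27.5 ± 23.7 CPM at E3.5 (SD, n = 10) and 45.1 ± 23.3 CPM in PrE (n = 5) with an edgeR adjusted p of 0.63. In the E4.5 cells not chosen, Fgfr1 was at a mean of 59.0 CPM and Fgfr3 at 1.37 CPM.

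The ligand Fgf3 rose from 2.11 to 83.4 CPM (5.24 ± 1.09, adjusted p = 0.0020). Fgf5, which is better known from the epiblast after implantation, had no count at E3.5 and stood at 93.2, 23.8, 10.6, 16.4 and 11.6 CPM in PrE, at least 619-fold higher (at least 310.03-fold without embryo 1), and at a mean of 25.1 CPM in the E4.5 cells not chosen. Fgf4, the ligand that the epiblast makes for the PrE, was part of the rule and stood at 77.2 and 9.43 CPM. Grb2, the adaptor between the receptors and RAS, fell from 129 to 35.3 CPM (−1.87 ± 0.36, adjusted p = 0.0010, not passed with the PrE of plate P1 alone), and Dusp6, an ERK target that acts against ERK, stood at 11.03 and 21.3 CPM (adjusted p = 0.62). Of 13 further receptor tyrosine kinases and ligands tested, 2 rose and 1 fell, although leaving out E4.5 embryo 1, 2 or 3 left 1 that rose and leaving out any of 8 embryos left 0 that fell. Epha2, an ephrin receptor, rose from 0.224 to 71.6 CPM (7.91 ± 1.18, adjusted p = 8.0e-05), and Pdgfa, the ligand of Pdgfra, stood at 45.4 and 81.7 CPM (adjusted p = 0.52) and at 170 CPM in the E4.5 cells not chosen.

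In the Nodal and BMP list, 6 of 25 rose and 2 fell (4 and 2 with all E4.5 cells). Nodal itself had no count at E3.5 and stood at 42.9, 23.3, 12.01, 6.44 and 4.38 CPM in the PrE of embryos 1 to 5, at least 354-fold higher (at least 229-fold without embryo 1). Its inhibitors Lefty1 and Lefty2 were also higher in PrE than at E3.5. Lefty2 had no count at E3.5 and stood at 1185, 95.2, 30.1, 113 and 87.6 CPM in PrE, at least 6009-fold higher but at least 1619-fold without embryo 1. Lefty1 went from at most 8.62 CPM to 399, 115, 120, 144 and 57.5 CPM (7.41 ± 1.20, adjusted p = 0.00019), with a log2 fold change of 6.77 without PrE embryo 1 and 9.34 without E3.5 embryo 4. Embryo 1 was the highest for all 3. The co-receptor Tdgf1 and the ligand Gdf3 fell, from 1123 to 86.2 CPM (−3.70 ± 0.44) and from 253 to 23.9 CPM (−3.41 ± 0.37), and stood at 1262 CPM (Tdgf1) and 320 CPM (Gdf3) in the E4.5 cells not chosen. Cer1, an inhibitor of Nodal known from the anterior visceral endoderm, had 3 counts in all of the PrE sums.

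Of the Wnt list, 15 of 30 members could be tested, and 4 rose and 1 fell (6 and 1 with all E4.5 cells), and that 1 was lost when any of the E4.5 embryos was left out. Dkk1, a secreted Wnt antagonist, stood at 0 to 11.3 CPM at E3.5 and at 244, 176, 262, 272 and 123 CPM in PrE (6.52 ± 0.99, adjusted p = 0.00010), against 0.835 CPM in the E4.5 cells not chosen. Of the Hedgehog, retinoid and Notch list, 12 of 28 members were tested and Aldh1a1, which makes retinoic acid, was the 1 gene that rose, from 0.0508 to 13.7 CPM (7.35 ± 1.17), with 3 that rose with all E4.5 cells and 2 when E3.5 embryo 8 or E4.5 embryo 2 or 5 was left out. Ihh, a hedgehog ligand of the endoderm, did not pass the filter on low counts, with no count at E3.5 and 1.12 to 34.1 CPM in PrE.

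Most naive pluripotency genes fell from E3.5 to PrE. Of 34 tested, 20 fell and 2 rose (20 and 1 with all E4.5 cells), and their median log2 fold change was −2.52 (−1.41 with all E4.5 cells). The summed level of the list was 17516 to 23727 CPM at E3.5 and 7819 to 10380 CPM in PrE. That sum includes 3 genes of the rule and is a description. With each of the 5 E4.5 embryos, E3.5 embryos 3, 4 and 5 or the cells without an embryo number left out in turn, 1 gene rose in place of 2. Spic, an ETS factor, stood at 371 to 1060 CPM at E3.5 and at 0.394 CPM or less in PrE (−11.61 ± 0.59, adjusted p = 1.7e-10), and Tfap2c, an AP-2 factor, stood at 60.97 to 251 CPM at E3.5 and had no count in PrE, at least 2733-fold lower. Dppa3, a maternal-effect gene that protects DNA methylation in the zygote, stood at 3863 to 6578 CPM at E3.5 and at 10.5, 129, 26.4, 121 and 15.4 CPM in PrE (−6.38 ± 0.61, adjusted p = 4.0e-07).

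Nanog, the homeodomain factor that opposes Gata6, stood at 34.5 to 725 CPM (median 289 CPM) at E3.5 and at 2.95, 5.15, 12.6, 2.20 and 41.3 CPM in PrE (−4.58 ± 0.80, adjusted p = 0.00038). Its ranges overlapped, as P8 embryo 4 had 34.5 CPM and PrE embryo 5 had 41.3 CPM. Klf2 fell from 200.3 to 6.21 CPM (−4.98 ± 0.71), Tfcp2l1 from 662 to 38.1 CPM (−4.12 ± 0.35), Dppa2 from 931 to 58.2 CPM (−3.997 ± 0.32) and Esrrb from 69.2 to 8.60 CPM (−3.01 ± 0.58, adjusted p = 0.0010). Esrrb was at 105 CPM in the E4.5 cells not chosen, and with all E4.5 cells (−1.20) and under the block (−2.59) its call was lost.

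Pou5f1, the POU factor of the whole ICM, stood at 1362 to 2307 CPM at E3.5 and at 711, 842, 755, 593 and 307 CPM in PrE (−1.51 ± 0.22, adjusted p = 6.1e-05). Dppa5a did not pass, at 4527 ± 1603 CPM at E3.5 (SD, n = 10) and 5805 ± 966 CPM in PrE (n = 5, edgeR adjusted p = 0.34). Lin28a, which blocks the maturation of let-7, rose from 11.9 to 171 CPM (3.84 ± 0.77, adjusted p = 0.0014, not passed with the PrE of plate P1 alone) and stood at 177 CPM in the E4.5 cells not chosen. Of 14 tested genes of epiblast maturation, 5 rose and 0 fell, and their median log2 fold change was −0.01 (7 and 0, with a median of 1.72, with all E4.5 cells).

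Genes of the oocyte and of cleavage stages were mostly too low to test. Of 46 list members, 32 with a row did not pass the filter on low counts, and of the 11 tested, 5 fell and 1 rose (4 and 1 with all E4.5 cells). The 1 gene that rose was lost without E4.5 embryo 3, and there were 2 without E3.5 embryo 4 or E4.5 embryo 5. Bhmt, a betaine-homocysteine methyltransferase, stood at 666 to 4080 CPM at E3.5 and at 0.822 CPM or less in PrE (−12.61 ± 0.90, adjusted p = 9.4e-09). Trim43c, of a family expressed at cleavage stages, stood at 98.4 to 687 CPM at E3.5 and had no count in PrE, at least 8237-fold lower. Reads of Trim43c that also fit its near-identical relatives may be missing, since a limit on mapping quality was used.

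Of 33 tested writers of DNA methylation and chromatin, 5 fell and 1 rose (3 and 1 with all E4.5 cells), with 8 that fell when E3.5 embryo 4 was left out and 2 that rose when E3.5 embryo 2, 4 or 5 was. Dnmt3a, a de novo DNA methyltransferase, rose from 47.1 to 488 CPM (3.38 ± 0.62, adjusted p = 0.00062) and was at 435 CPM in the E4.5 cells not chosen. Its relatives Dnmt3b and Dnmt3l, counted on the epiblast side of the rule, were also higher in PrE than at E3.5, at 594 and 36.4 CPM (Dnmt3b) and 275 and 21.4 CPM (Dnmt3l), given without a test. Tet2, which oxidizes methylcytosine, fell from 284 to 40.1 CPM (−2.83 ± 0.37), and Aebp2, a partner of the Polycomb complex PRC2, fell from 130 to 16.6 CPM (−2.96 ± 0.43).

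Of 33 tested genes of epithelial junctions and polarity, 4 rose and 6 fell (the same counts with all E4.5 cells). The risers included parts of the apical membrane. Myo6, a myosin that moves endocytic vesicles, rose from 1.46 to 167 CPM (6.78 ± 0.88) and Slc9a3r1, the apical scaffold NHERF1, from 3.76 to 295 CPM (6.24 ± 0.87). Epcam, an adhesion molecule, fell from 692 to 97.8 CPM (−2.82 ± 0.34), and Cdh2, encoding N-cadherin, stood at 3.27 to 36.7 CPM at E3.5 and had no count in PrE, at least 291-fold lower. Cdh1, encoding E-cadherin, stood at 129 and 91.2 CPM (adjusted p = 0.39).

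Many genes of glycolysis rose. Of 22 tested glycolytic genes 11 rose and 0 fell (10 and 0 with all E4.5 cells), the list summed to 1522 to 3109 CPM at E3.5 and 9048 to 14044 CPM in PrE, and its median log2 fold change was 1.46. Ldha, which makes lactate, stood at 0 to 76.1 CPM at E3.5 and at 2280, 4791, 2708, 3267 and 1924 CPM in PrE (7.16 ± 0.99, adjusted p = 3.7e-05). Pfkl, the liver phosphofructokinase, rose from 27.9 to 567 CPM (4.33 ± 0.84), and Eno1, an enolase, from 69.9 to 739 CPM (3.40 ± 0.28). In the E4.5 cells not chosen, Ldha was at 2160 CPM, Eno1 at 788 CPM and Pfkl at 135 CPM. Of 39 nuclear genes of oxidative phosphorylation, 5 rose and 0 fell (3 and 0 with all E4.5 cells, and 3 and 0 without E3.5 embryo 1, 3 or 4, the cells with no embryo number, or E4.5 embryo 2).

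Of 29 genes of cholesterol synthesis 7 rose and 0 fell, a count that depended on single embryos, since 4 rose without E4.5 embryo 1, 1 without embryo 3 and 3 without embryo 4, and 2 with all E4.5 cells. The cell cycle list gave 3 that rose and 4 that fell of 37 (1 that rose without E4.5 embryo 4 or 5), near the shares over all genes, and Ccnd3, a D-type cyclin, fell from 655 to 141 CPM (−2.21 ± 0.32). Of 17 imprinted genes, 3 rose and 2 fell, and Snrpn fell from 373 to 52.5 CPM (−2.83 ± 0.37). Of 17 stress and immediate early genes, 0 rose and 2 fell (0 to 1 and 0 to 2 when 1 embryo was left out), and the summed level of the list was 6906 to 11408 CPM at E3.5 and 5064 to 6520 CPM in PrE. Among 13 tested genes that the study names for these lineages, chosen by its authors on these cells and so no independent evidence, 1 rose and 4 fell, among them Pdpn, encoding podoplanin, from 392 to 29.8 CPM (−3.72 ± 0.50).

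Outside the lists, the 10 genes with the largest rise included several secreted and transport proteins. Spink3, a serine protease inhibitor, had 8 counts over all E3.5 sums and stood at 154 to 1048 CPM (median 412 CPM) in PrE. Nostrin, an adaptor between membranes and the cytoskeleton, had 6 counts over the E3.5 sums and stood at 271 to 432 CPM in PrE. Car4, a membrane-bound carbonic anhydrase, stood at 55.1 to 359 CPM in PrE with no count at E3.5, at least 3545-fold higher. Podxl, the apical sialomucin podocalyxin, was at least 2287-fold higher (mean 115 CPM in PrE), Habp2, a serum protease, at least 2255-fold (113 CPM), and Fstl1, a secreted follistatin-like protein, at least 2176-fold (109 CPM). Slc40a1, the iron exporter ferroportin, was at least 1868-fold higher (93.9 CPM), Pla2g12b at least 1620-fold (81.5 CPM) and Cobll1 at least 1127-fold (56.7 CPM, at least 630.4-fold without embryo 5). Iqgap2, with 1 count over the E3.5 sums, stood at 30.0 to 100.4 CPM in PrE. The means in the E4.5 cells not chosen were 132 CPM for Fstl1, 54.0 CPM for Podxl and 51.5 CPM for Car4. Fstl1 was thus higher there than in PrE (104 CPM on that scale). The others had 9.08 CPM (Spink3), 8.30 CPM (Nostrin), 8.27 CPM (Slc40a1), 6.22 CPM (Iqgap2), 1.18 CPM (Habp2), 0.220 CPM (Cobll1) and 0 (Pla2g12b).

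The 10 genes with the largest drop were led by genes with no count in PrE. Akr1c21, an aldo-keto reductase, was at least 2684-fold lower (mean 124 CPM at E3.5), Rnd1, a small GTPase, at least 2440-fold (113 CPM) and Tat, a tyrosine aminotransferase, at least 1382-fold (64.0 CPM). Calcoco2, an autophagy receptor, stood at 5429 to 8589 CPM at E3.5 and at 11.1 to 35.4 CPM in PrE (−8.43 ± 0.30, adjusted p = 5.0e-13). Aqp3, a water and glycerol channel, fell from 352 to 0.295 CPM (−9.86 ± 0.68), Reep1, a protein that shapes the ER, from 204 to 0.359 CPM (−9.59 ± 1.03), and Gch1, the first enzyme of tetrahydrobiopterin synthesis, from 313 to 0.798 CPM (−8.50 ± 0.90). Ly6g6e (207 to 0.0875 CPM), Pramel6 (261 to 0.240 CPM) and Pramel4 (52.2 to 0.0655 CPM, 2 counts in PrE) made up the rest. Reads that fit near-identical copies of the PRAME family may be missing, as only those of mapping quality 20 or more were counted. The E4.5 cells not chosen had a mean of 149 CPM for Calcoco2 and 5.76 CPM for Ly6g6e. Theirs was 4.99 CPM for Reep1, 4.86 for Aqp3, 4.78 for Akr1c21, 3.87 for Gch1, 1.22 for Rnd1 and 0 for Tat, Pramel6 and Pramel4. Each gene was thus also lower there than at E3.5, which was not tested.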

How the data were processed

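The authors deposited raw counts per gene and cell. They trimmed paired reads of 100 bp with Trim Galore, aligned them with HISAT2 to GRCm38 (versions 0.4.3 and 2.0.5 in the submitters' processing notes, where the methods of the paper give others), counted reads of mapping quality 20 or more in SeqMonk, and left out cells with fewer than 4000 genes, over 10% mitochondrial reads or trophoblast markers. Normalization and tests were added here. The 24483 rows lie on autosomes, and other chromosomes were not analysed here. Cell totals were 187196 to 1442116 counts at E3.5 (median 553935) and 182338 to 2089903 in PrE (median 755266).

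Counts were summed per embryo (at least 3 cells) and tested with edgeR 4.0.16 in R 4.3.3 (TMM factors, which also scale the CPM of the sums, filterByExpr, quasi-likelihood fit, and p-values adjusted over all genes tested after Benjamini and Hochberg). Genes passed where the adjusted p did not exceed 0.05 and the log2 fold change lay beyond 1. SE is the log2 fold change over the root of the F statistic. P-values of levels rest on the spread between the sums of a stage. That spread holds differences between embryos, between plates of a stage and in which cells were picked. The code was tested on simulated data. Plates share no embryo, and samples of the stages that carry the same embryo number come from different embryos.

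The members and lists were chosen with earlier results of these data known. The result of 1 list member is counted but not shown. Named genes are list members with the largest changes that passed, up to 3 per list that did not, genes the study names, and the 10 largest rises and drops outside the lists (no overlap, mean of at least 50 CPM). Alternatives used DESeq2 1.42.0 and limma 3.58.1.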

Additional observations from a re-analysis of the deposited data

Results flagged for a closer look

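In 194 groups of 5 or 10 sums of a named gene, the highest or lowest sum was tested for a gap to its neighbour beyond Dixon's 95% limit. It was passed in 36 (18.6%), where chance gives about 1 in 20 for normally distributed values. That rate does not hold for the 7 of them in which all sums but 1 were at 0. All values are CPM of a sum, and no cause was tested.

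In PrE, embryo 1 stood apart on 6 genes, with Lefty2 at 1185, Lefty1 at 399, Fgf5 at 93.2, Calr at 1357, Pramel6 at 1.15 and Pramel4 at 0.328. Embryo 3 stood apart on 4, with Creb3l2 at 53.6 (low), Nr5a2 at 6.10, Gdf3 at 36.2 and Reep1 at 1.79. Embryo 5 did so on 4, with Apom at 357, Nanog at 41.3, Habp2 at 223 and Cobll1 at 157, and embryo 4 on Bhmt at 0.822.

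At E3.5, P8 embryo 4 stood apart with Nid2 at 14.6, Lefty1 at 8.62, Dnajc3 at 173 and Ccnd3 at 1312. It holds the cell with counts of Cdx2, Krt18, Elf5 and Dppa1 together. P8 embryo 1 stood apart on Pdpn at 1019, P8 embryo 3 on Apoa1 at 118 and Fgfr1 at 252, and P8 embryo 5 on Gsc at 149.97, Cdh2 at 36.7 and Gch1 at 718. P9 embryo 6 stood apart on Spink3 at 0.448, P9 embryo 7 on Sox7 at 0.968, Col4a2 at 133 and Dkk1 at 11.3, and P9 embryo 9 on Hspg2 at 14.6, Fgfr3 at 1.52, Epha2 at 2.24, Aldh1a1 at 0.508 and Iqgap2 at 0.102. The cells with no embryo number stood apart on Myo6 at 6.42 and Slc9a3r1 at 19.08.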

How the results depend on the processing

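The 1548 genes that passed (801 higher and 747 lower in PrE) became 811 (318 and 493) with 3 cells per sum, 628 (370 and 258) with PrE of plate P1 only, 983 (510 and 473) with plate P2 only and 838 (414 and 424) when tested against the log2 limit of 1. They became 2398 (1312 higher) with the E3.5 embryos of plate P9 only, 2613 (1697 higher) without the filter on low counts and 3245 (2414 higher) by limma on the mean log2(CPM + 1) of the cells, and 1126 were lower with at least 5 cells per sum. Leaving out each numbered embryo in turn gave 1240 to 1607 genes (595 to 800 higher, 625 to 843 lower). The replicate block on embryo numbers 1 to 5, which name different embryos at the 2 stages, gave 1284 genes (888 higher and 396 lower). The correlation of same-numbered embryos' deviations was −0.0392 to 0.0164, so the numbers do not pair them.

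Of 107 named genes tested, 95 passed. They kept their direction in each of 3113 values under the alternatives and passed again in 3081, with 84 genes that passed under every alternative. The 11 that lost a call did so with E4.5 plate P1 alone (Gata4, Creb3l2, Hhex, Nid2, Lama5, Tfrc, Grb2, Lin28a and Dnajc3), E4.5 plate P2 alone (Gata4, Creb3l2, Hhex, Tfrc and Dnajc3), E3.5 plate P8 alone (Hhex, Nid2, Lama5 and Dnajc3), the block (Hhex, Nr5a2, Nid2, Lama5, Tfrc and Esrrb), all E4.5 cells (Hhex, Tfrc and Esrrb), 3 cells per sum (Creb3l2 and Hhex), the log2 limit (Lama5 and Dnajc3) or single cells only (Hhex). Of the 12 that did not pass, 27 values passed under an alternative, 9 of them of Apoa1 (−4.79 to −1.78), 6 of Hnf4a (1.80 to 5.99), 4 of Pdgfra (1.01 to 2.89), 3 of Fn1 (−1.86 to −1.45), 3 of Canx (1.06 to 1.19) and 1 each of Sox17 (3.87 by limma) and Pdgfa (1.27 with at least 5 cells). Leaving out 1 embryo moved the fold change by over 1.5 times for 26 of the 75 passed genes that have counts in both groups. It became smaller for Lefty1 without E4.5 embryo 1 (6.77) and for Reep1 (−8.98), Pramel6 (−9.82) and Pramel4 (−9.18) without E4.5 embryo 4. It became larger without E3.5 embryo 4 for Nid2 (5.25), Lrp2 (9.06), Lefty1 (9.34) and Dnajc3 (4.21), without E3.5 embryo 6 for Spink3 (13.63), without E3.5 embryo 7 for Sox7 (13.77) and Dkk1 (7.35), without E3.5 embryo 9 for Hspg2 (9.53), Fgfr3 (13.00), Epha2 (12.19), Aldh1a1 (9.81), Nostrin (12.63) and Iqgap2 (11.76), and without the cells of no embryo number for Fgf3 (6.03) and Slc9a3r1 (6.98). It also did without E4.5 embryo 1 for Pramel6 (−12.99) and Pramel4 (−11.79), embryo 2 for Gsc (−7.53), embryo 3 for Nr5a2 (−7.97) and Reep1 (−13.76), embryo 4 for Spic (−12.99), Bhmt (−15.35) and Gch1 (−9.35), and embryo 5 for Klf2 (−5.97), Nanog (−5.78) and Ly6g6e (−12.29). Where a group was left with no count, as for Sox7, Fgfr3, Epha2, Aldh1a1, Iqgap2, Pramel4 and Reep1, the fitted value depends on the prior count of edgeR. Reversed log2 fold changes came only from genes that did not pass. With P9 only and with at least 5 cells they were 0.086 and 0.10 for Gata6, −0.020 and −0.37 for Nid1 and −0.20 and −0.15 for Dppa5a. Nid1 was −0.16 with all E4.5 cells and −0.079 to 0.27 when 1 embryo was left out (lowest without E3.5 embryo 4), and Fn1 was 0.36 under the block. The causes were not tested. Depth limits genes with few counts in the E3.5 sums of 3 or 4 cells.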
